A study of Homo sapiens with 8 samples.

Results

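The 33 genes described here encode proteins of homologous recombination and of the Fanconi anaemia pathway of DNA repair. They were read from a series in which 4 established human renal carcinoma lines, ACHN, CAKI2, A498 and CAKI1, each received A939572, which inhibits the fatty acid desaturase SCD1, at 75 nM for 24 h, or DMSO, the solvent. The submitters describe all 4 lines as clear cell renal cell carcinoma, and all were grown in serum-supplemented medium. By the labels, the groups differed only in the agent. There was 1 array per line and group (4 A939572 and 4 DMSO arrays). The members were chosen by function, with earlier results of these data known. Each was represented by its brightest probe set among those annotated to that gene alone. Of the 33 members, 28 had such a probe set, among 19775 genes in all, and 27 were bright enough to be tested, among 12093 genes tested. BRCA2, FANCA, FANCD2, RBBP8 and ATRIP, the partner of the checkpoint kinase ATR, were not analysed here.

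Homologous recombination rebuilds a broken DNA molecule by copying an intact one, usually the sister chromatid, and so works mainly in cells that are replicating or have replicated their DNA. Broken ends are first resected to single strands, strand exchange with the intact molecule follows with the help of BRCA1, PALB2 and BRCA2, and the joined molecules are finally dissolved or cut apart. The Fanconi pathway acts on crosslinks between the strands: a core complex with the E2 enzyme UBE2T attaches ubiquitin to FANCD2 and FANCI, and the lesion is then unhooked and passed on to recombination. Many of these genes are known to be transcribed mainly around S phase in dividing cells.

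Motifs known from cell cycle promoters, which other promoters also hold, were searched for. Promoter sequences of 3 members with lower RNA in A939572-treated cells are shown beside that of RAD50, the 1 member that was higher. They are the 250 bases before the annotated start, 5′ to 3′ on the gene's strand, from RefSeq on GRCh38.p14: BRIP1 at chr17:61863529-61863778 on the minus strand, UBE2T at chr1:202341937-202342186 on the minus strand, BLM at chr15:90717096-90717345 on the plus strand and RAD50 at chr5:132556727-132556976 on the plus strand. Capitals mark matches to a CCAAT box (CCAAT, or ATTGG where the match lies on the other strand) or to a CHR element (TTTGAA or TTCGAA, or the complement). The 3 lower members were picked after the motif search, as members at least 2-fold lower with 1 window and at least 2 CCAAT boxes. Their contrast with RAD50 in CCAAT boxes therefore follows from that choice and is no result.
BRIP1: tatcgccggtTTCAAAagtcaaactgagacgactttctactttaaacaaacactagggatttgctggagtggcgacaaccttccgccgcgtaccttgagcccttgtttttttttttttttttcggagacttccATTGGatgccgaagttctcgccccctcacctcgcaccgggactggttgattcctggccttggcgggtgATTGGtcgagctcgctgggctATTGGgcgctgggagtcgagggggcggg
UBE2T: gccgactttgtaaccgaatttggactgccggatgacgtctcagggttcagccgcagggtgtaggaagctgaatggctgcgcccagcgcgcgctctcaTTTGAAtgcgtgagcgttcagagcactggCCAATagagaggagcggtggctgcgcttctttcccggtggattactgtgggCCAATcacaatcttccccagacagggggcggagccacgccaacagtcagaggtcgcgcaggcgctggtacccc
BLM: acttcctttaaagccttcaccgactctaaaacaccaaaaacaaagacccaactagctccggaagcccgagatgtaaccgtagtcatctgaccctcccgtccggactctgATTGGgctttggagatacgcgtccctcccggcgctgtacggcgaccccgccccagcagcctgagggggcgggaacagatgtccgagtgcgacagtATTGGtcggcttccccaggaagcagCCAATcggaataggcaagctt
RAD50: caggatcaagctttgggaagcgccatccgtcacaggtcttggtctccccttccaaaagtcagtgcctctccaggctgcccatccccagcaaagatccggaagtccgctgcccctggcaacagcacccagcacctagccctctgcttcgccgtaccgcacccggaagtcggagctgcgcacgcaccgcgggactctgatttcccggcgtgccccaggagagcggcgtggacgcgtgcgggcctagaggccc

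BRIP1 and BLM each held 3 CCAAT boxes in these bases, UBE2T held 2, BRIP1 and UBE2T each held 1 CHR element, and RAD50 held neither motif. E2F motifs, searched as TTTCCCGC, TTTGGCGC, TTTCGCGC and TTTGCCGC on both strands, were found in none of the 4 sequences, and no match overlapped another in them. RefSeq windows of 300 bases, running from 250 before to 50 after the start, were given for 29 members, 8 of which had 2 windows; RMI2, NBN, RAD54B and FANCI had none. Among the 16 windows of 13 members called lower, 8 held a CCAAT box, 3 an E2F motif and 2 a CHR element. Of the members at least 2-fold lower that are not shown, RAD54L and RAD51AP1 had a CCAAT box, and BARD1, EXO1 and FANCB had none. Of the 12 windows of 9 members that were tested and not called, 5 held a CCAAT box, 1 an E2F motif and 1 a CHR element. Over all 35116 windows, the shares were 34.6% for a CCAAT box, 3.31% for an E2F motif and 16.4% for a CHR element. These are letter matches, and binding to them was not measured.

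Levels below are log2(signal + 16) after quantile normalization, differences are A939572 minus DMSO on that scale, errors are SDs over the 4 lines, and sets of 4 values always run ACHN, CAKI2, A498, CAKI1. The offset of 16 understates the change of dim genes. A gene was called when the Benjamini-Hochberg adjusted p of limma, fitted over all genes with the line as a block, was under 0.05. Whether a line's arrays came from separate cultures is not in the labels, so the p-values rest on the spread between the lines, and 8 arrays limit the precision. Limma moderates that spread toward the spread of other genes of similar level. The p-values therefore do not follow from the printed SDs alone: MRE11A had an SD of 0.04 and a standard error of 0.13. Before normalization, array signal medians lay between 68.6 and 76.3 units on A939572 arrays and between 71.2 and 84.2 on DMSO arrays. In each line the A939572 array had the lower median. Of the kidney carcinoma markers, 8 of 9 were above the brightness filter, and their mean level was 9.89 to 10.9 on A939572 arrays and 10.3 to 11.3 on DMSO arrays. No leukocyte marker of 4 was above it (mean level 4.92 to 5.53 with A939572 and 4.82 to 5.60 with DMSO), nor was any endothelial marker of 5 except PECAM1 (5.34 to 5.67 and 5.27 to 5.85) or any fibroblast marker of 7 except COL1A1 (5.61 to 6.33 and 5.52 to 6.41). For ACTB, the control probe set at the 3′ end over that at the 5′ end, a sign of RNA integrity and of labelling, gave a ratio of 3.02 to 4.22 on A939572 arrays and 2.12 to 2.33 on DMSO arrays, and it was higher with A939572 in 4 of 4 lines. For GAPDH the ratio was 1.01 to 1.11 with A939572 and 0.962 to 1.05 with DMSO, also higher in 4 of 4 lines. Of the markers tested, COL1A1 (-1.04 ± 0.36), LHX1 (-1.65 ± 0.70) and CA12 (-0.56 ± 0.45) were called lower with A939572 and PAX8 (0.38 ± 0.19) higher (limma adjusted p = 0.00318, 0.00656, 0.0339 and 0.0294). LHX1 was dim and passed the brightness filter through its DMSO mean of 7.25, since its A939572 mean was 5.60. These medians, ratios and markers moved with the treatment, and their part in the differences below was not tested.

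Of the 27 members tested, 15 had lower RNA in A939572-treated cells, 1 had higher RNA and 11 were not called. Over all genes tested, 15.9% were called lower and 14.7% higher. The members at least 2-fold lower were 10, against a background of 3.61%, and they spread over every role that could be tested: BARD1 and BRIP1 around BRCA1, RAD54L and RAD51AP1 in strand exchange, FANCB, UBE2T and FANCI in the Fanconi pathway, EXO1 in resection, and BLM and RMI2 in dissolution. FANCB passed the brightness filter through its DMSO level, and among the 26 members whose mean reached the filter in both groups, 14 fell, 9 of them at least 2-fold. Among all 11594 genes that reached it in both groups, 1879 were called lower, 398 of them at least 2-fold. In 8 members, all 4 A939572 arrays lay below all 4 DMSO arrays, where 4.94% of all genes did so. The difference was below 0 in 4 of 4 lines for 17 members, against 25.3% of all genes, and above 0 in 4 of 4 lines for 3 members, against 22.7%. The median difference of the members was -0.54, and that of all genes tested was -0.03. Because the arrays measured whole cultures, fewer cells in S phase and less RNA per cell cannot be told apart. With arrays centred on their medians in place of quantile normalization, 14 of the 27 members tested were lower and 3 higher. Of all 12096 genes then tested, 1544 were lower and 2163 higher. Thus 41.7% of all called genes were lower, against 52.0% under quantile normalization.

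**Figure D1:**
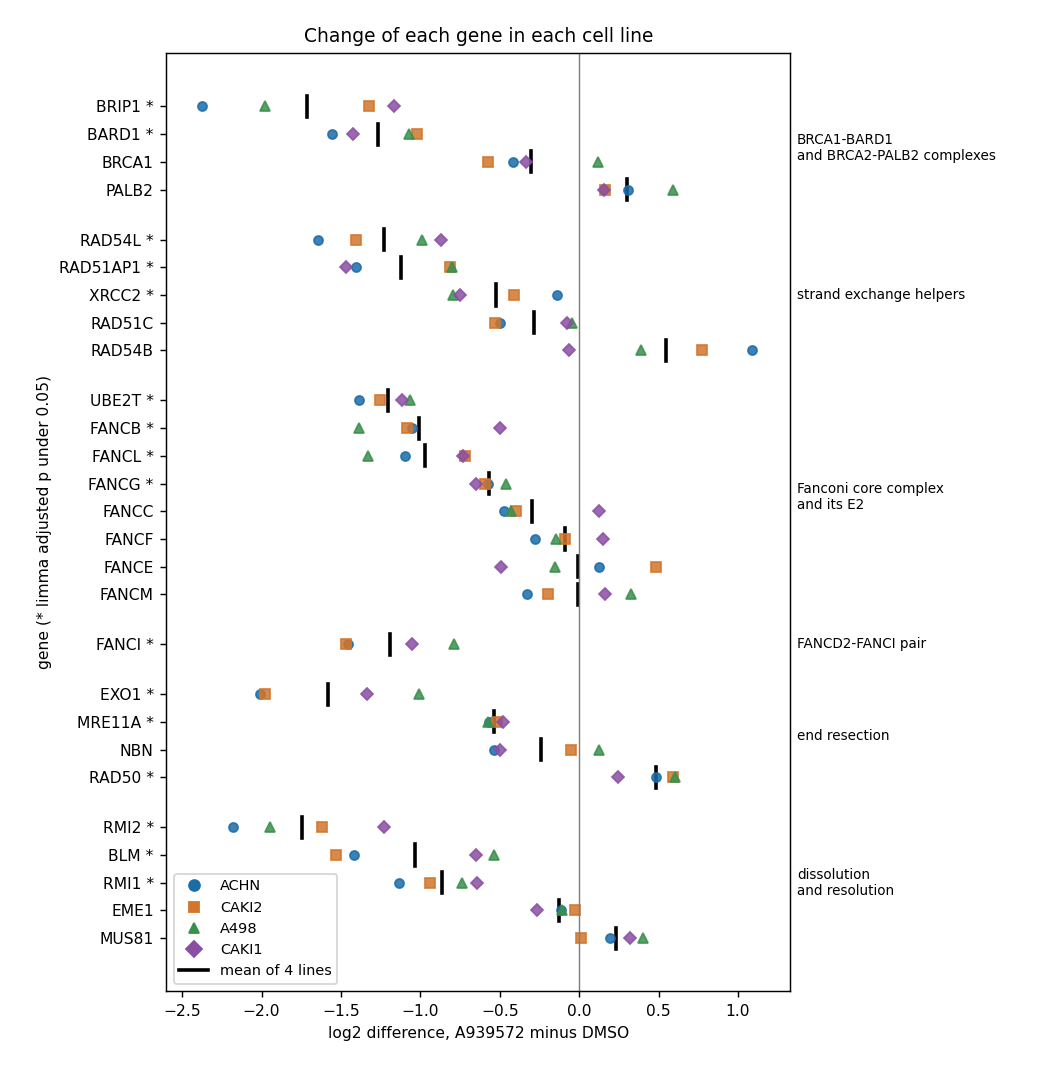
Difference of each of the 27 tested genes in each line (log2, A939572 minus DMSO), ordered by role; points are the 4 lines, black bars their mean, and asterisks mark limma adjusted p under 0.05. The 15 genes that fell lie left of 0 in every line, and RAD50, the 1 gene that rose, lies right of 0 in every line.

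Of the 4 tested genes of the complexes around BRCA1, which brings repair factors to broken DNA, 2 fell and 2 were not called. BRIP1, a helicase that binds BRCA1 and is also the Fanconi protein FANCJ, had levels of 8.01, 8.75, 8.21 and 9.14 on A939572 arrays, against 10.38, 10.07, 10.19 and 10.30 on DMSO arrays. The DMSO levels of the 4 lines were close together, all A939572 levels lay below them, and ACHN had the lowest A939572 level. The difference was -1.71 ± 0.57, or 3.28-fold lower (n = 4 lines; limma adjusted p = 0.000634), and a further probe set had -1.49. BARD1, the obligate ubiquitin ligase partner of BRCA1, had 9.00, 9.50, 9.26 and 8.06 with A939572, against 10.55, 10.52, 10.33 and 9.49 with DMSO. CAKI1 had the lowest level in both groups, and its DMSO level lay just under the CAKI2 level with A939572, so the groups overlapped although BARD1 was lower in every line. Its difference was -1.27 ± 0.26, 2.41-fold lower (n = 4 lines; limma adjusted p = 0.000551), and its other probe sets had -1.46 and -1.62.

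BRCA1 itself was not called, with a difference of -0.30 ± 0.30 and a 95% interval of -0.64 to 0.03 (limma adjusted p = 0.152). It was below 0 in ACHN, CAKI2 and CAKI1 (-0.42, -0.58 and -0.34) and at 0.12 in A498. PALB2, which links BRCA1 to BRCA2, had 0.31, 0.16, 0.59 and 0.15, above 0 in every line. Its mean of 0.30 ± 0.20 was not called (limma adjusted p = 0.105), but was called higher when arrays were centred on their medians (adjusted p = 0.0474).

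Among the 5 tested genes that help in strand exchange, 3 fell and 2 were not called. RAD54L, a translocase that drives strand exchange, had 7.77, 8.08, 8.03 and 7.74 with A939572, against 9.42, 9.49, 9.02 and 8.61 with DMSO. No A939572 level reached a DMSO level, and the 4 lines were closer to each other in the A939572 group. The difference was -1.23 ± 0.36, 2.34-fold lower (n = 4 lines; limma adjusted p = 0.00134). RAD51AP1, which stimulates the joining of DNA molecules, had 11.28, 10.73, 9.52 and 10.04 with A939572, against 12.69, 11.54, 10.32 and 11.51 with DMSO. Its level differed more between the lines than between the groups, with ACHN highest and A498 lowest in both, so that the groups overlapped. The difference within the lines was -1.12 ± 0.36, 2.18-fold lower (n = 4 lines; limma adjusted p = 0.000977).

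XRCC2, which acts early in strand exchange, had differences of -0.14, -0.41, -0.80 and -0.75. Its mean of -0.52 ± 0.31 passed the test narrowly (limma adjusted p = 0.0434), and the call was lost when the arrays were centred on their medians (adjusted p = 0.0791) and when CAKI2, A498 or CAKI1 was left out (0.0830, 0.163 and 0.134). RAD51C, which acts at the same step, had -0.50, -0.53, -0.04 and -0.08, a mean of -0.29 ± 0.26 that was not called (limma adjusted p = 0.13). Its other probe set had -0.59 ± 0.30, and the mean of both was called lower (adjusted p = 0.0419). XRCC3, the partner of RAD51C, was too dim to test: its levels were 4.90, 4.58, 5.44 and 4.62 with A939572 and 4.31, 5.27, 4.71 and 5.51 with DMSO, under the filter of 6.41.

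RAD54B, the paralog of RAD54L, stood on the other side of 0. It had 10.62, 11.00, 10.49 and 10.21 with A939572, against 9.53, 10.23, 10.10 and 10.28 with DMSO. It was higher with A939572 in ACHN, CAKI2 and A498 by 1.09, 0.77 and 0.39, and at -0.06 in CAKI1. The mean of 0.55 ± 0.50, with a 95% interval of 0.13 to 0.96, missed the threshold (limma adjusted p = 0.0510). Under 5 alternatives it was called higher, and without CAKI1 the difference was 0.75 (adjusted p = 0.0187).

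**Figure D2:**
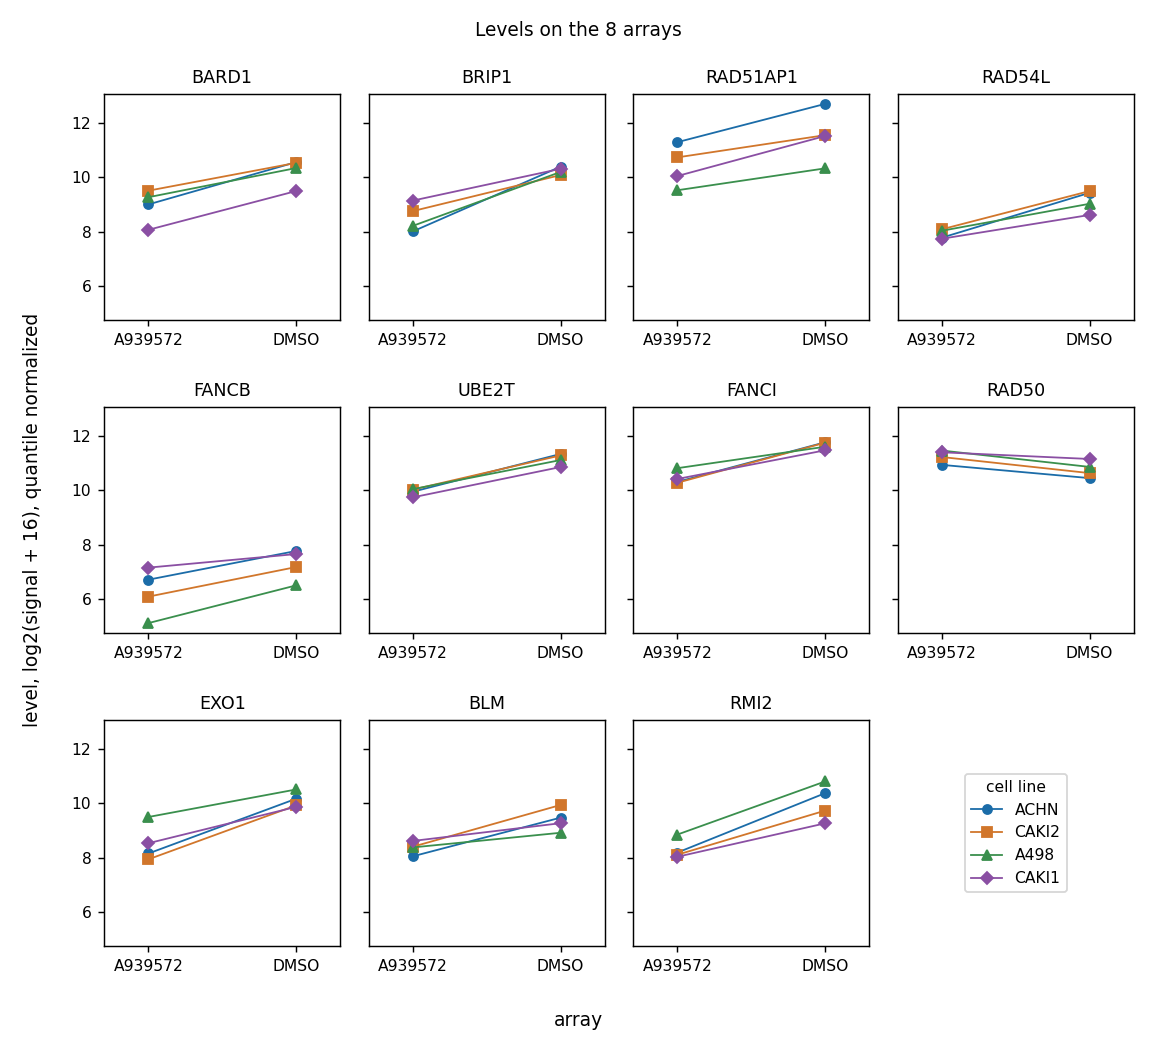
Level, log2(signal + 16) after quantile normalization, on the A939572 array (left) and the DMSO array (right) of each line, for the 10 genes called at least 2-fold lower and for RAD50; lines join the arrays of a cell line. In the 10 genes every line has its lower level with A939572, as in BRIP1 at 8.01 to 9.14 against 10.07 to 10.38 with DMSO, and in RAD50 every line has its higher level with A939572.

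Of the 8 tested genes of the Fanconi core complex and its E2, 4 fell and 4 were not called, and those that fell include the E2 and the ligase subunit. UBE2T, the E2 that carries ubiquitin to the complex, had 9.94, 10.02, 10.04 and 9.73 with A939572, against 11.33, 11.27, 11.10 and 10.85 with DMSO. The lines differed less within each group than the groups did, and the groups did not overlap. The difference was -1.21 ± 0.14, 2.31-fold lower (n = 4 lines; limma adjusted p = 0.000349). FANCL, the RING subunit that works with UBE2T, had 10.57, 10.33, 10.29 and 10.42 with A939572, against 11.66, 11.06, 11.62 and 11.16 with DMSO. Again no A939572 level reached a DMSO level, and the difference was -0.97 ± 0.30, 1.96-fold lower (n = 4 lines; limma adjusted p = 0.00132).

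FANCB, which holds FANCL in the catalytic module of the complex, had 6.71, 6.08, 5.11 and 7.15 with A939572, against 7.76, 7.17, 6.50 and 7.65 with DMSO. It was dim and passed the filter through its DMSO mean of 7.27, since its A939572 mean was 6.26. The groups overlapped, A498 being lowest in both. Its difference was -1.01 ± 0.37, 2.01-fold lower (n = 4 lines; limma adjusted p = 0.0203). The call was lost without ACHN, CAKI2 or A498 (adjusted p = 0.0723, 0.0585 and 0.0590), and the other probe sets, 1 of them above the filter, had -0.42, -0.51 and -0.38. FANCG, a scaffold subunit, changed by nearly the same amount in all lines (-0.57, -0.60, -0.46 and -0.65), a mean of -0.57 ± 0.08 or 1.48-fold lower (limma adjusted p = 0.00959).

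The other 4 genes of the complex were not called. FANCC had -0.47, -0.40 and -0.43 in ACHN, CAKI2 and A498 and 0.13 in CAKI1, a mean of -0.29 ± 0.28 (limma adjusted p = 0.221). FANCE, its partner, had 0.12, 0.48, -0.15 and -0.50, a mean of -0.01 ± 0.42 (adjusted p = 0.978), and FANCF, the adaptor between them and the rest, averaged -0.09 ± 0.18 (adjusted p = 0.674). The translocase FANCM, which anchors the complex on DNA, had -0.33, -0.19, 0.33 and 0.16, a mean of -0.01 ± 0.31 (adjusted p = 0.978). FANCE and FANCM had opposite signs in different lines, and their 95% intervals were -0.49 to 0.47 and -0.45 to 0.43.

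FANCI, the partner of FANCD2 and a target of the complex, had 10.30, 10.27, 10.81 and 10.41 with A939572, against 11.76, 11.74, 11.59 and 11.46 with DMSO. All A939572 levels lay below all DMSO levels, and A498 had both the highest A939572 level and the smallest fall. The difference was -1.19 ± 0.33, 2.28-fold lower (n = 4 lines; limma adjusted p = 0.000671). Its other probe sets had -0.99 and -0.76 and were lower in every line.

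End resection held members that moved in both directions, 2 lower and 1 higher of 4 tested. EXO1, an exonuclease that extends resected ends, had 8.15, 7.93, 9.49 and 8.53 with A939572, against 10.16, 9.91, 10.50 and 9.86 with DMSO. The groups did not overlap, and the fall was larger in ACHN and CAKI2 (-2.01 and -1.98) than in A498 and CAKI1 (-1.01 and -1.33). The mean difference was -1.58 ± 0.49, 3.0-fold lower (n = 4 lines; limma adjusted p = 0.000635).

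MRE11A, now named MRE11, RAD50 and NBN form 1 complex that senses broken ends and starts their resection, and the 3 did not move together. RAD50, the ATPase that tethers the ends, had 10.93, 11.21, 11.45 and 11.39 with A939572, against 10.44, 10.62, 10.85 and 11.14 with DMSO. Each line had its higher level with A939572, while the groups overlapped because the lines differed. The difference was 0.48 ± 0.16, 1.40-fold higher (n = 4 lines; limma adjusted p = 0.0160). Its other probe sets, at 0.61 ± 0.18 and 0.37 ± 0.11, were also higher in 4 of 4 lines. The call was lost without ACHN, CAKI2 or A498 (adjusted p = 0.0513, 0.0583 and 0.0669) and kept without CAKI1 (difference 0.56, adjusted p = 0.0222).

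MRE11A, the nuclease, had 9.95, 8.46, 8.33 and 9.69 with A939572, against 10.51, 8.98, 8.91 and 10.18 with DMSO. ACHN and CAKI1 were high and CAKI2 and A498 low in both groups, so the groups overlapped although each line was lower with A939572. The difference was -0.54 ± 0.04, 1.45-fold lower (n = 4 lines; limma adjusted p = 0.0137). The call was lost without ACHN (adjusted p = 0.0537) and when its 3 probe sets were averaged (0.223), of which the further 2 were under the filter. NBN, the signalling subunit, had -0.54, -0.05, 0.12 and -0.50 and was not called (-0.24 ± 0.33; limma adjusted p = 0.214). Its 5 probe sets disagreed in sign, at -0.24, 0.17, -0.17, -0.03 and 0.19.

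Of the complex that dissolves crossed DNA molecules, BLM, RMI1 and RMI2 fell, and the nuclease that cuts such molecules was not called. TOP3A, the topoisomerase of the complex and no member of the 33, had a difference of 0.04 ± 0.18 and was not called (limma adjusted p = 0.909); it was named after its value was seen. RMI2, a scaffold subunit, had 8.18, 8.10, 8.84 and 8.03 with A939572, against 10.36, 9.72, 10.79 and 9.26 with DMSO. The highest A939572 level, in A498, lay below the lowest DMSO level, in CAKI1. The difference was -1.74 ± 0.41, 3.35-fold lower, the largest fall among the 27 members (n = 4 lines; limma adjusted p = 0.000333). BLM, the helicase of the complex, had 8.05, 8.40, 8.37 and 8.61 with A939572, against 9.46, 9.93, 8.91 and 9.26 with DMSO. The groups did not overlap, and ACHN and CAKI2 fell more (-1.42 and -1.53) than A498 and CAKI1 (-0.54 and -0.65). The mean difference was -1.04 ± 0.51, 2.05-fold lower (n = 4 lines; limma adjusted p = 0.00487).

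RMI1, the subunit that binds RMI2 and the topoisomerase, had 9.64, 9.82, 10.50 and 9.22 with A939572, against 10.78, 10.76, 11.23 and 9.86 with DMSO. Each line was lower with A939572, and the groups overlapped, CAKI1 being lowest and A498 highest in both. The difference was -0.86 ± 0.22, 1.82-fold lower (n = 4 lines; limma adjusted p = 0.00182). MUS81 and EME1, the subunits of a nuclease that cuts branched DNA, had 0.23 ± 0.17 and -0.13 ± 0.10 (limma adjusted p = 0.236 and 0.401). MUS81 was above 0 and EME1 below 0 in every line, and a second probe set of EME1 had -0.43 ± 0.38.

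The members' median was below 0 in each line and nearly the same in all. Median differences of the 27 members over the 4 lines were -0.57, -0.58, -0.54 and -0.50, where all genes had -0.01, -0.02, -0.04 and -0.03. Members below 0 numbered 22, 22, 20 and 21 of 27, and of the 12093 genes tested 6115, 6232, 6349 and 6360 were below 0. Over the 15 members that fell, the medians were -1.41, -1.09, -0.99 and -0.87, deepest in ACHN. ACHN had the largest fall of the 4 lines in 7 of these members and the smallest in 1, while A498 and CAKI1 each had the smallest in 6. With 1 array per line and group, these orders have no test. Among DMSO arrays, CAKI1 had the lowest level of 14 of the 27 members and ACHN the highest of 12. The matching counts over all genes were not made, so these orders cannot be called particular to the members.

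Several probe sets were available for 13 members and 1 for 15. Of 25 further probe sets, 17 were at or above the filter, and 13 of those had a difference below 0. The 4 above 0 belong to RAD50 and NBN. BARD1, BRIP1, FANCI and RAD50 kept their direction in every line on each of their probe sets, whereas those of FANCB, MRE11A and NBN varied in size or sign.

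**Figure D3:**
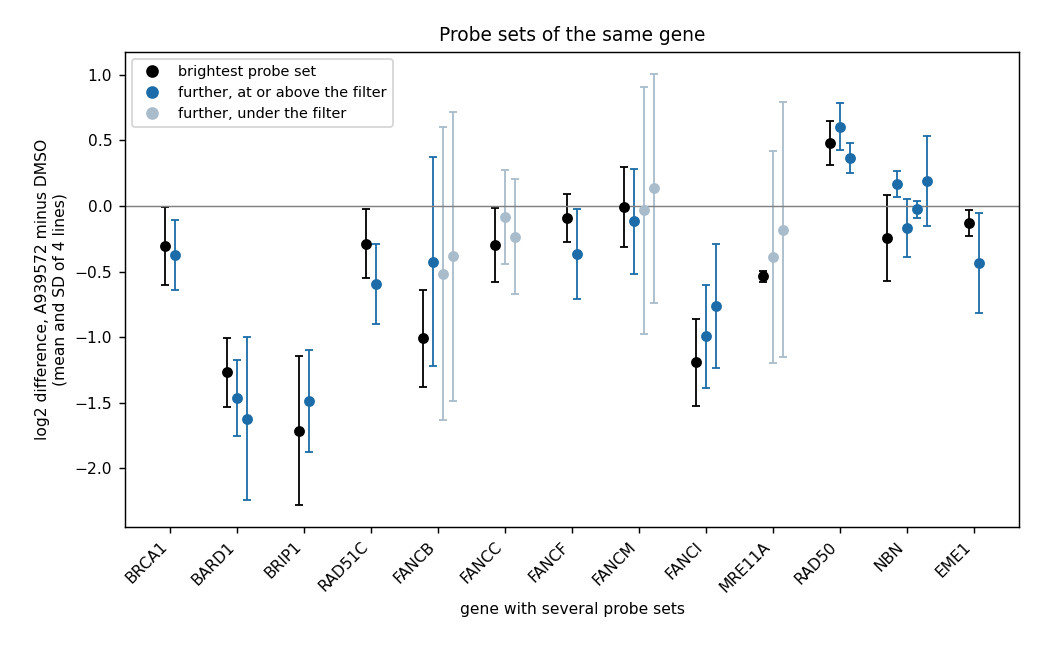
Difference (log2, A939572 minus DMSO; mean and SD of 4 lines) of each probe set of the 13 genes with several; black marks the brightest, dark blue the further probe sets at or above the filter and pale blue those under it. All probe sets of BARD1, BRIP1 and FANCI lie below 0, all 3 of RAD50 above it, and the 5 of NBN lie on both sides.

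Other genes of the same pathway and of other repair routes were read from the same fit, in lists given by function. Of 44 further homologous recombination and Fanconi genes tested, 11 were lower and 4 higher, with a median of -0.15. The largest changes in that list were those of HELQ, a helicase of crosslink repair, at 1.53 ± 0.40 (limma adjusted p = 0.000691), and of RPA1, a subunit of the protein that coats single-stranded DNA, at -1.14 ± 0.13 (adjusted p = 0.000291). In mismatch repair and its replication factors, 5 of 10 were lower and 2 higher, with a median of -0.66, led by the replication clamp PCNA (-1.44 ± 0.24; limma adjusted p = 0.000151) and the clamp loader subunit RFC3 (-1.35 ± 0.45; adjusted p = 0.000787). In base excision repair, 7 of 19 were lower and 2 higher (median -0.21), with UNG, the uracil glycosylase, at -1.63 ± 0.60 and NTHL1, another glycosylase, at -1.20 ± 0.22 (limma adjusted p = 0.000713 and 0.000704).

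Among damage checkpoint genes, 7 of 18 were lower and 3 higher (median -0.27), with CLSPN, an adaptor of the checkpoint kinase CHEK1, at -1.43 ± 0.40 and the histone H2AX at -1.21 ± 0.46 (limma adjusted p = 0.00179 and 0.00131). In end joining, which reseals breaks without a template, 5 of 13 were lower and 1 higher (median -0.22), with PAXX at -1.04 ± 0.72 and PRKDC, the catalytic subunit of the kinase at broken ends, at -0.89 ± 0.17 (limma adjusted p = 0.0323 and 0.000868). The A939572 mean of PAXX lay just under the brightness filter, and of the 12 end joining genes that reached it in both groups 4 were lower. Nucleotide excision repair had 2 of 19 lower and 3 higher, with a median of 0.18; GTF2H5, a subunit of the factor TFIIH, was at -1.01 ± 0.21 and CDK7, its kinase, at 0.60 ± 0.17 (limma adjusted p = 0.000722 and 0.00488). The counts called lower ran from 6 to 13 in the further recombination list, from 3 to 6 in the checkpoint list and from 2 to 4 in end joining as each line was left out, with the fewest without ACHN in each. Leaving out lines gave 0 to 3 checkpoint genes called higher, 0 without ACHN and 0 without A498. Without A498, 0 end joining and 0 mismatch repair genes were called higher, and without any of the other lines 1 in each. In base excision repair 1 was called higher whichever line was left out, and in nucleotide excision repair 1 was called lower without CAKI2, A498 or CAKI1. Mismatch repair kept 5 called lower whichever line was left out. With arrays centred on their medians, 4 checkpoint genes were lower and 3 higher, 1 nucleotide excision repair gene was lower and 5 higher, and 4 end joining genes were lower and 2 higher. Differences between these lists and the 33 members were not tested.

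**Figure D4:**
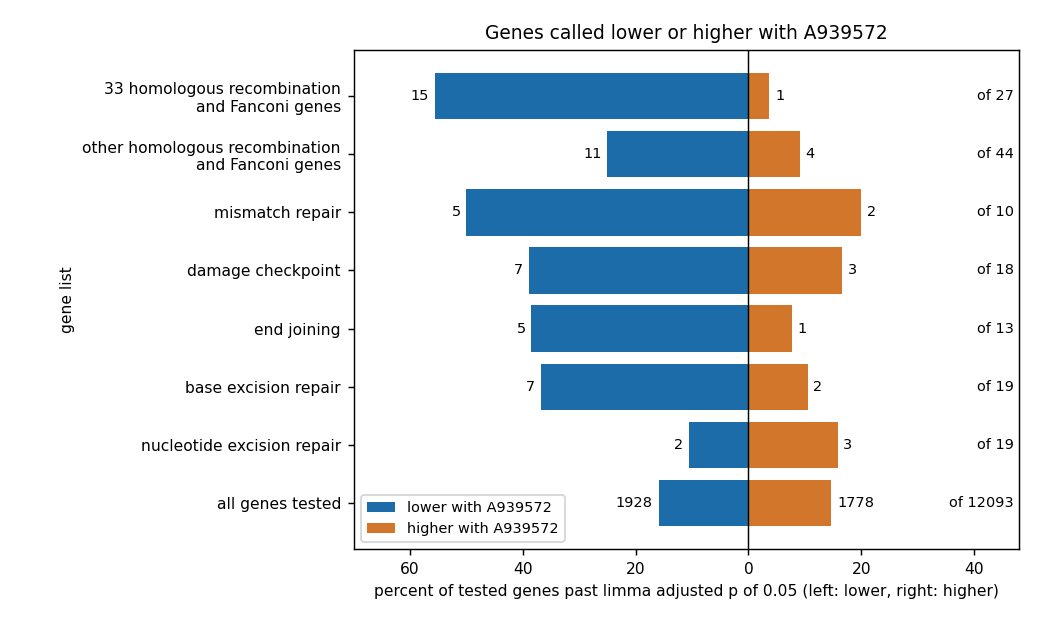
Percent of tested genes called lower (left, blue) or higher (right, orange) with A939572 (limma adjusted p under 0.05) in the 33 homologous recombination and Fanconi genes, in 6 other repair lists and over all genes tested; numbers beside the bars are genes called, and those at the right edge are genes tested. The 33-gene list had 15 of 27 lower and 1 higher, and all genes tested had 1928 lower and 1778 higher of 12093.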

How the data were processed

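RNA of 8 samples was measured on single-colour oligonucleotide arrays. Per the labels' protocols, 100 ng of total RNA was reverse transcribed and transcribed into cRNA carrying biotin. The authors deposited linear intensity values for 54675 probe sets. The program that made them is not given in the sources used here. Each array's mean, with 2% of probe sets trimmed at each end, was 500.067 to 500.073, so the authors had scaled them to 1 level. No detection call or scan date was used.

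Control probe sets (62) were left out. Array medians of log2(signal + 16) spread from 6.40 to 6.64, over the limit of 0.1, and the arrays were quantile normalized. Of the rest, 41091 probe sets had 1 symbol in the platform annotation, 1801 several (among them all 3 of ATRIP) and 11721 were unnamed here; no probe set used was named for BRCA2, FANCA, FANCD2 or RBBP8. By Entrez ID, 41037 matched a current symbol of GRCh38.p14, used for names. The brightest probe set stood for a gene, and genes were tested whose mean reached 6.41, the median over probe sets.

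A939572 was set against DMSO with limma 3.58.1 in R 4.3.3 (lmFit, eBayes with a mean-variance trend, 2-sided), with the line as a block, as the submitters' design pairs them, and Benjamini-Hochberg adjustment over all 12093 genes. The deviations of a line's arrays from their group means correlated at 0.818 to 0.864 across genes, and those of different lines at -0.0303 or less. Degrees of freedom were 9.28 and the median SE of a difference was 0.17. For a single gene, the smallest 2-sided p of an exact test over 4 pairs would be 0.125. The fit was tested on simulated data. Members and gene lists were chosen with earlier results of these data known. All 33 members are accounted for; arrays are given for those called with an absolute log2 difference of at least 1, for any called against the majority, and for some others chosen after their values were seen (FANCL, RMI1, MRE11A, RAD54B); from each other list the largest and the next largest called change are named. Alternatives changed the normalization, offset, filter, probe set, block, variance trend and lines used.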

Additional observations from a re-analysis of the deposited data

Results flagged for a closer look

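In 3 of 81 groups of 4 values examined, 1 value stood apart from the other 3 by more than Dixon's test allows at 95%, and chance gives about 1 in 20. The difference of FANCC was 0.13 in CAKI1, where the other lines lay between -0.47 and -0.40. The level of FANCF in ACHN with A939572 was 8.03, against 9.03 to 9.23 in the other lines. The DMSO level of MUS81 in ACHN was 8.96, against 9.47 to 9.53 in the other lines. None of these genes was called in the comparison of A939572 with DMSO. The causes were not tested.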

How the results depend on the processing

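The fall of most members kept its count within 13 to 15 of those tested under every alternative except no replicate block: without the cell line in the model, 3 members were called lower (BRIP1, UBE2T and FANCI) and 0 higher, and over all genes 29 were lower and 38 higher. Members called higher numbered 3 with arrays centred on their medians, 2 with signals as deposited, with an offset of 64 and with the stricter filter, and 0 to 2 as each line was left out, the additions being RAD54B and, when centred, PALB2. Leaving out a line gave 13 to 14 lower, the losses falling on XRCC2, FANCB and MRE11A. XRCC2 was also lost with no filter (adjusted p = 0.0910) and with no variance trend (0.0530). The members' median was -0.46 when centred, -0.50 with an offset of 64, -0.48 over the mean of all probe sets and -0.99 without probe sets ending in _x_at, _s_at or _a_at, where 20 members were tested. Signs turned for genes that were not called: FANCE had 0.039 when centred and -0.17 to 0.15 as lines were left out, FANCM 0.039 when centred and -0.12 to 0.10, and NBN 0.19 without such probe sets. In the other 6 repair lists no more than 1 gene was called lower and 0 higher without the block. Of damage checkpoint genes, 7 were lower by the test reported and 4 when centred, with no variance trend or without such probe sets; of base excision repair genes, 7 and, without such probe sets, 4; of end joining genes, 5 and, with no filter or no variance trend, 3. Causes of these shifts were not tested. With 8 arrays and a median SE of 0.17, differences near the threshold, such as those of XRCC2, RAD50 and RAD54B, could not be settled.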
